A study of Mus musculus with 207 samples.

Results

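The genes for immunoglobulin Fc receptors were examined in macrophages grown from mouse bone marrow. The set held 5 genes, Fcgr1, Fcgr2b, Fcgr3, Fcer1g and Fcgrt. They were chosen by name, with every probe set of the array that the annotation assigned to them, where a probe set is a group of short probes read as 1 value. This gave 10 probe sets of 45037 on the array. The signal minimum, a signal of at least 78 in at least 69 arrays, was reached by 9 of the 10, among 22059 probe sets in all. The 10th, the Fcgr2b probe set 1447622_at, had a median signal of 4.8 in females and 5.15 in males and was not tested.

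The mice were an F2 intercross of 2 apoE-deficient parental lines, on the AKR and DBA/2 backgrounds, and all lacked apoE, which carries lipoprotein lipids. At 16 weeks of age their femoral marrow was cultured with L-cell conditioned medium, a source of the growth factor M-CSF, and RNA from the macrophages of each mouse was put on 1 Affymetrix genome array. There were 93 females, and the males comprised 24 mice with code numbers 55 to 78 and 90 others. The code number ends the sample title (2 females have a further _2), from smi33 to smi126 in females and from 14smi009 to 14smi122 in males, and the labels do not say what it stands for. Every F2 mouse has its own mixture of the parental genomes, so the spread within a sex holds genetic differences, the culture and the array together. A culture is a bulk sample, in which fewer cells of a type and less RNA per cell cannot be told apart.

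Fc receptors bind the constant part of antibodies. On macrophages, Fcgr1 (the high-affinity IgG receptor) and Fcgr3 (a low-affinity one) are activating. They have no signalling motif of their own and pass their signal through the common gamma chain, the product of Fcer1g, whose ITAM recruits the kinase Syk. Fcgr2b is the inhibitory receptor, and its ITIM recruits the phosphatase SHIP1, the product of Inpp5d, so that the relative amounts of activating receptors and Fcgr2b set how readily immune complexes trigger the cell. Fcgrt encodes the heavy chain of the neonatal Fc receptor, which pairs with beta-2 microglobulin inside the cell and rescues IgG and albumin from degradation. Fcgr2b, Fcgr3 and Fcer1g lie on chromosome 1, Fcgr1 on chromosome 3 and Fcgrt on chromosome 7.

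Upstream sequences of Fcgr1, Fcgr2b and Fcgr3, which bind IgG at the cell surface, are shown because Fcgr1 and Fcgr2b, the activating and the inhibitory receptor, followed different courses over the mice below. Each is the 250 bases before the start of the gene in RefSeq (GRCm38.p6), read 5′ to 3′ on the strand of the gene, which is the minus strand for all 3. They are chr3:96293970-96294219 for Fcgr1, chr1:170976072-170976321 for Fcgr2b and chr1:171059404-171059653 for 1 of 2 annotated starts of Fcgr3. Capitals mark matches to the core of the PU.1 motif, GAGGAA or, on the other strand, TTCCTC. Both strands were searched, also for the interferon response element, taken as GAAA followed after any 2 bases by GAAA again.
Fcgr1: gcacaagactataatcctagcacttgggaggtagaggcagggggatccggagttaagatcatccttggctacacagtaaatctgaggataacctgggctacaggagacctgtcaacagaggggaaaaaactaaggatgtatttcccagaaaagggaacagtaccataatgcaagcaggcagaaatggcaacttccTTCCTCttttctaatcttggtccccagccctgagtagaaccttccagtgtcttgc
Fcgr2b: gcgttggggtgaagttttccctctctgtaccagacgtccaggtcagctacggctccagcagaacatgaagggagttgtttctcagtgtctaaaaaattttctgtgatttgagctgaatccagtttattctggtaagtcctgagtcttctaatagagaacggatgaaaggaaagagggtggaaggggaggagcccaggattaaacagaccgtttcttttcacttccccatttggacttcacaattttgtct
Fcgr3: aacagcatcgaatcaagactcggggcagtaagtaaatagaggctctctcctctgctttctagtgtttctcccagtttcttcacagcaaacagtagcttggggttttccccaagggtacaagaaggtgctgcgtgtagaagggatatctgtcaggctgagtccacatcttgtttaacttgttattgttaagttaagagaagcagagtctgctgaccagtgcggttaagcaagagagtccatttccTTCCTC
The Fcgr1 window held a PU.1 core 55 bases before the start. The Fcgr3 window held a PU.1 core 6 bases before the start. The interferon response element was not found in the windows of Fcgr1 or Fcgr3, and neither motif was found in those of Fcgr2b, Fcer1g or Fcgrt. Of 32851 mouse windows of this kind, 23.3% held the PU.1 core and 2.98% the interferon response element. A match describes letters and not a bound site.

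MAS5 signals are linear and ran here from 0.1 to 67866.1, after a scaling by the authors by which the trimmed mean of every array was 494 to 497. The sex labels held in all mice: Xist was higher in each of the 93 females than in any male, and the Y-linked gene Eif2s3y was higher in every male than in any female. Array medians were 51.1 to 112.4 in females, 76 to 122.3 in the 24 males numbered 55 to 78 and 54.7 to 78.9 in the other 90 males. These 24 males had been picked out by their array medians in earlier results of the data, so they are described without a test. Signals of mice with consecutive code numbers resembled each other, with a median Spearman correlation over all tested probe sets of 0.380 in females and 0.486 in males. The p-values below treat the mice of a sex as exchangeable and are therefore too small. Levels are compared between mice and never between probe sets, and of each gene the brightest probe set stands for it.

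Females were set against males by a Mann-Whitney test, 2-sided, with Bonferroni correction over the 22059 tested probe sets. Every male title has a prefix before smi that no female title has, and the labels do not explain it. The sexes therefore coincide with the series of titles, and a difference between sexes cannot be told apart from one between series. Sex differences below are differences between these labelled groups. Fcgr1, Fcgr3, Fcer1g and 1 of 4 tested Fcgr2b probe sets were lower in females than in males, while Fcgrt did not pass the test. Thus 4 of 9 probe sets of the set were called, all 4 higher in males. Over all tested probe sets 31.2% were called, 15.2% higher in females and 16% higher in males, so that calls of this kind were common on the array. The median ratio of female to male mean signal over all tested probe sets was 0.990.

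Fcgr1, which binds monomeric IgG, had the lowest ratio of the 5 genes. Its signal (1417876_at) ran from 628.9 through a median of 2799.1 to 9001.9 in females, and from 1199.3 through 3404.5 to 9776.1 in males. The ranges overlapped over nearly their whole length, but the females were displaced downwards, and in 69.2% of all female and male pairs the male was higher. The mean was 2753 ± 1308 in females and 3688 ± 1591 in males (SD, n = 93 females and all 24 and 90 males), a ratio of 0.746 (Bonferroni p = 0.0442, Mann-Whitney). On the log2 scale the females lay 0.46 lower, with a 95% interval for female minus male of -0.63 to -0.28. A 2nd Fcgr1 probe set, 1436625_at, averaged 811 ± 351 in females and 1086 ± 563 in males, again a ratio of 0.746, and did not pass the correction (Bonferroni p = 0.984).

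Fcgr3, the activating low-affinity receptor, differed less in size. It ran from 5465.1 through 10232.3 to 15156.8 in females, and from 6824.9 through 12041.2 to 18866 in males. Females and males overlapped over most of the range, with only males at the top. The mean was 10435 ± 2031 in females and 12149 ± 2218 in males (SD), a ratio of 0.859 (Bonferroni p = 0.00232, Mann-Whitney), and the male was higher in 71.5% of pairs.

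Fcer1g, the shared signalling chain, was among the steadiest signals of the array. It ran from 20794.9 through 25587.3 to 32478 in females, and from 21641.5 through 27464.8 to 35630.5 in males. The difference between the sexes was small beside the level. The mean was 25735 ± 2530 in females and 27909 ± 2977 in males (SD), a ratio of 0.922 (Bonferroni p = 0.00541, Mann-Whitney), and the male was higher in 70.9% of pairs.

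Fcgr2b, the inhibitory receptor, gave different answers with different probe sets. The brightest, 1435477_s_at, ran from 4566.3 through 13880.5 to 20321.9 in females, and from 5631.4 through 14177.8 to 21090.9 in males. Here the sexes overlapped throughout, with means of 13217 ± 3296 in females and 14004 ± 3144 in males (SD), a ratio of 0.944 (Bonferroni p = 1, 95% interval of the log2 difference -0.20 to 0.01). Probe set 1451941_a_at ran from 3198.8 through 8385.3 to 12055.4 in females, and from 4084.1 through 11040.7 to 16796.6 in males. On this probe set the females were clearly displaced downwards, with means of 8191 ± 2151 in females and 10922 ± 2481 in males, a ratio of 0.750 (Bonferroni p = 1.03e-08), and the male was higher in 79.3% of pairs. Probe sets 1455332_x_at and 1435476_a_at lay between them, with ratios of 0.831 and 0.822 and Bonferroni p of 0.137 and 0.0901.

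The disagreement among the Fcgr2b probe sets was tested mouse by mouse, as the difference of their log2 signals. The gap between 1435477_s_at and 1451941_a_at was 0.69 in females and 0.36 in males, so that it was wider in females by 0.34 ± 0.016 (SE, permutation p = 1e-05, the smallest that 100000 permutations can give, Benjamini-Hochberg p = 1.4e-05 over the 7 pairs of probe sets of 1 gene). Of these 7 gaps 5 differed between the sexes, all 5 among Fcgr2b probe sets. The gap between 1455332_x_at and 1435476_a_at (p = 0.397) and that of the 2 Fcgr1 probe sets (Benjamini-Hochberg p = 0.176) did not pass. Without the males numbered 55 to 78, in which 1435476_a_at averaged 10475 against 8511 in the other males, all 7 passed. Within either sex the probe sets of a gene still ranked the mice alike, with Spearman correlations from 0.922 to 0.974 in females and from 0.901 to 0.978 in males. The suffixes mark probes shared by several transcripts (_s_at, _a_at) or partly similar to other sequences (_x_at), Fcgr2b and Fcgr3 are close relatives in sequence, and which transcripts each probe set reads was not tested.

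Fcgrt, the neonatal receptor, was the only one of the 5 genes with the higher mean in females. It ran from 802.8 through 2294.7 to 4254.6 in females, and from 422.2 through 1956.45 to 4574.4 in males. The males held both the lowest and the highest mouse. The mean was 2426 ± 877 in females and 2126 ± 917 in males (SD), a ratio of 1.14 that did not pass the correction (Bonferroni p = 1, unadjusted p = 0.0225, Mann-Whitney).

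**Figure D1:**
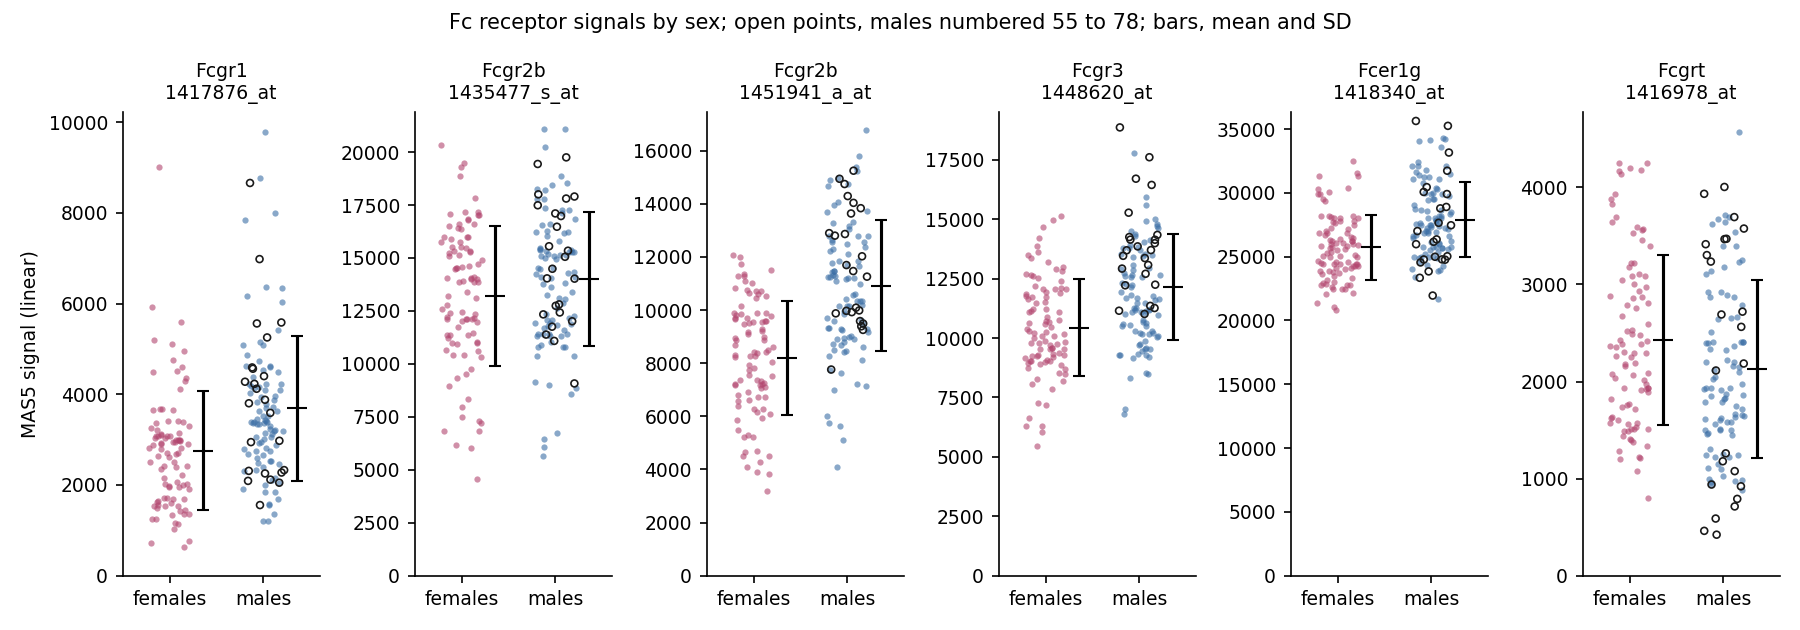
MAS5 signal (linear axis) of 6 probe sets of the Fc receptor genes, 1 point per mouse, with the 93 females to the left of the males. Open points are the males numbered 55 to 78 and bars show the mean and SD. The sexes overlap in every panel, with the clearest downward displacement of females for the Fcgr2b probe set 1451941_a_at, at a mean of 8191 in females and 10922 in males.

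**Figure D2:**
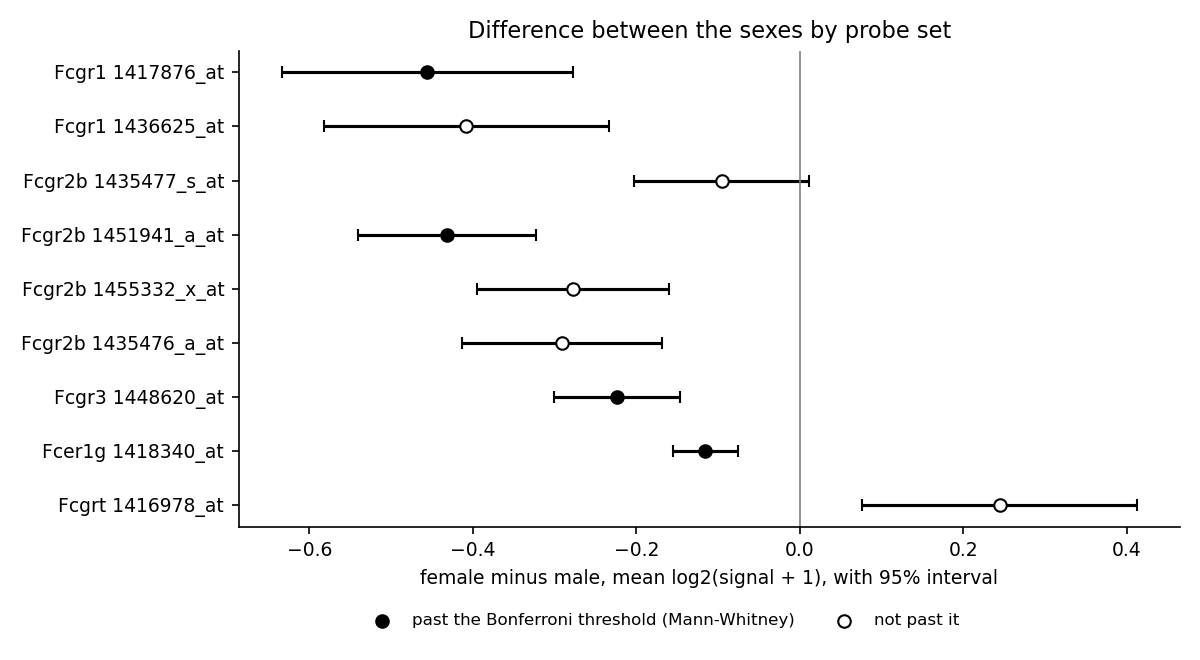
Difference of mean log2(signal + 1), females minus males, for the 9 tested probe sets, with 95% intervals. Filled points passed the Bonferroni correction of the Mann-Whitney test. The 4 filled points lie below 0, and Fcgrt is the only point above 0.

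The calls rested on the scaling of the arrays. With each array scaled to the same median signal, none of the 9 probe sets passed, at ratios of 0.822 for Fcgr1 and 0.953 for Fcgr3, and of 1.01 for Fcer1g and 1.03 for Fcgr2b 1435477_s_at, whose directions turned. The same scaling moved the median log2 ratio over all tested probe sets to 0.12, against -0.01 as deposited, and the share of calls higher in females to 79.1%, against 48.8%. All 9 ratios of the Fc receptor probe sets were higher under it. With quantile normalization Fcgr3 no longer passed, at a ratio of 0.879 (Bonferroni p = 0.0623), and without a signal minimum Fcgr1 no longer passed (p = 0.0903). Without the 24 males numbered 55 to 78 only Fcer1g (Bonferroni p = 0.00312) and Fcgr2b 1451941_a_at (p = 4.78e-06) passed. The ratios there were 0.755 for Fcgr1 (p = 0.17) and 0.892 for Fcgr3 (p = 1), near those over all mice. A limma fit that also held the 3′ to 5′ ratios of Gapdh and beta-actin, 2 measures of RNA integrity, gave 2 calls at the Bonferroni threshold. They were Fcer1g, lower in females by 0.23 on the log2 scale (Bonferroni p = 2.69e-06), and Fcgrt, higher in females by 0.78 (p = 0.00286), which had not been called without the ratios. In that fit Fcgr3 differed by -0.20 ± 0.067 and Fcgr2b 1451941_a_at by -0.31 ± 0.091 (SE, Bonferroni p = 1 for each, Benjamini-Hochberg p = 0.00956 and 0.0028), against -0.22 ± 0.039 and -0.43 ± 0.054 without the ratios. The Gapdh ratio itself was 0.917 ± 0.065 in females and 0.791 ± 0.030 in males, so it went along with sex. The fit held 1 slope on this ratio for both sexes. The Spearman correlation of the ratio with Fcgrt was, however, -0.109 in females and -0.678 in males. The fit therefore cannot tell sex apart from RNA integrity, and its Fcgrt difference of 0.78, against 0.24 without the ratios, depends on that shared slope.

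The size of the sex difference changed along the code numbers that both sexes shared. Fcgr2b 1451941_a_at averaged 7414 in females and 12533 in males at numbers 33 to 62, 9639 in females and 12059 in males at 63 to 92, and 7643 in females and 9593 in males in the last 30 shared numbers, from 93. The gap was therefore widest at the low numbers, where 3 Fcgr2b probe sets passed the correction (15.5% of all tested). Fcgrt averaged 2778 in females and 2995 in males at 33 to 62, 3023 in females and 1653 in males at 63 to 92, and 1577 in females and 1504 in males in the last 30. Only in the middle range did Fcgrt pass, higher in females (Bonferroni p = 0.00567, 17.1% of all tested called), and no member passed in the last range (8.28%). Fcgr1 averaged 3576 in females and 3932 in males at 33 to 62, 2860 in females and 4372 in males at 63 to 92, and 2010 in females and 2675 in males in the last 30, lower in females in each range without passing within any of them.

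The balance of activating and inhibitory receptors was measured as the log2 ratio of an activating signal to that of Fcgr2b in the same mouse. Such a ratio of different probe sets has no absolute meaning and is read only between mice. Fcgr1 over Fcgr2b was -2.37 ± 0.75 in females and -2.01 ± 0.63 in males (SD), lower in females by a factor of 0.779 (difference -0.36, 95% interval -0.55 to -0.17, permutation test, Benjamini-Hochberg p = 0.00039 over 3 ratios). Fcgr3 over Fcgr2b was -0.32 ± 0.33 in females and -0.19 ± 0.31 in males, lower in females by a factor of 0.915 (difference -0.13, interval -0.22 to -0.04, Benjamini-Hochberg p = 0.00721). Fcer1g over Fcgr2b was 1.01 ± 0.44 in females against 1.03 ± 0.38 in males. The difference of -0.02 had an interval from -0.13 to 0.09 (Benjamini-Hochberg p = 0.722).

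These balances depended on the Fcgr2b probe set. Set against 1451941_a_at, the probe set on which Fcgr2b itself was lower in females, the Fcgr1 balance differed by only -0.02 (p = 0.795), and the Fcgr3 and Fcer1g balances turned to 0.21 and 0.32 higher in females (p = 3e-05 each). Over the code numbers held by both sexes, with the brightest probe set, neither the Fcgr1 balance (-0.22, p = 0.101) nor the Fcgr3 balance (-0.08, p = 0.133) passed.

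Along the code number the balance moved in both sexes. Fcgr1 over Fcgr2b fell with the number, with a Spearman correlation of -0.665 in females (Pearson r = -0.663, and -0.642 without the 2 females farthest from the median number, permutation p = 1e-05 for each coefficient, the smallest 100000 permutations can give, Benjamini-Hochberg p = 6e-05 over 12 tests). In males the correlation was -0.388 (r = -0.412, permutation p = 2e-05 for rho and 3e-05 for r, r = -0.372 without the 2 farthest, Benjamini-Hochberg p = 8e-05 for rho), and in the 90 males outside 55 to 78 it was -0.481. The ratio was highest in the mice with the lowest numbers of each sex. Its mean was 2.55 times the female mean in females numbered 33 to 42, and 2.37 times the male mean in the 4 males numbered 9 to 12. Fcgr3 over Fcgr2b fell with the number in females (rho = -0.374, r = -0.392, permutation p = 0.00026 and 0.00012, r = -0.347 without the 2 farthest, Benjamini-Hochberg p = 0.00078 for rho). In males it did not pass by rank (rho = -0.195, Benjamini-Hochberg p = 0.0754) but did by Pearson r (-0.285, Benjamini-Hochberg p = 0.0038). Set against Fcgr2b 1451941_a_at, the male Fcgr3 balance passed by neither (rho = 0.002, Benjamini-Hochberg p = 0.982, r = -0.098, Benjamini-Hochberg p = 0.45). With the brightest probe set, Fcer1g over Fcgr2b had correlations of 0.032 in females and 0.040 in males.

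**Figure D3:**
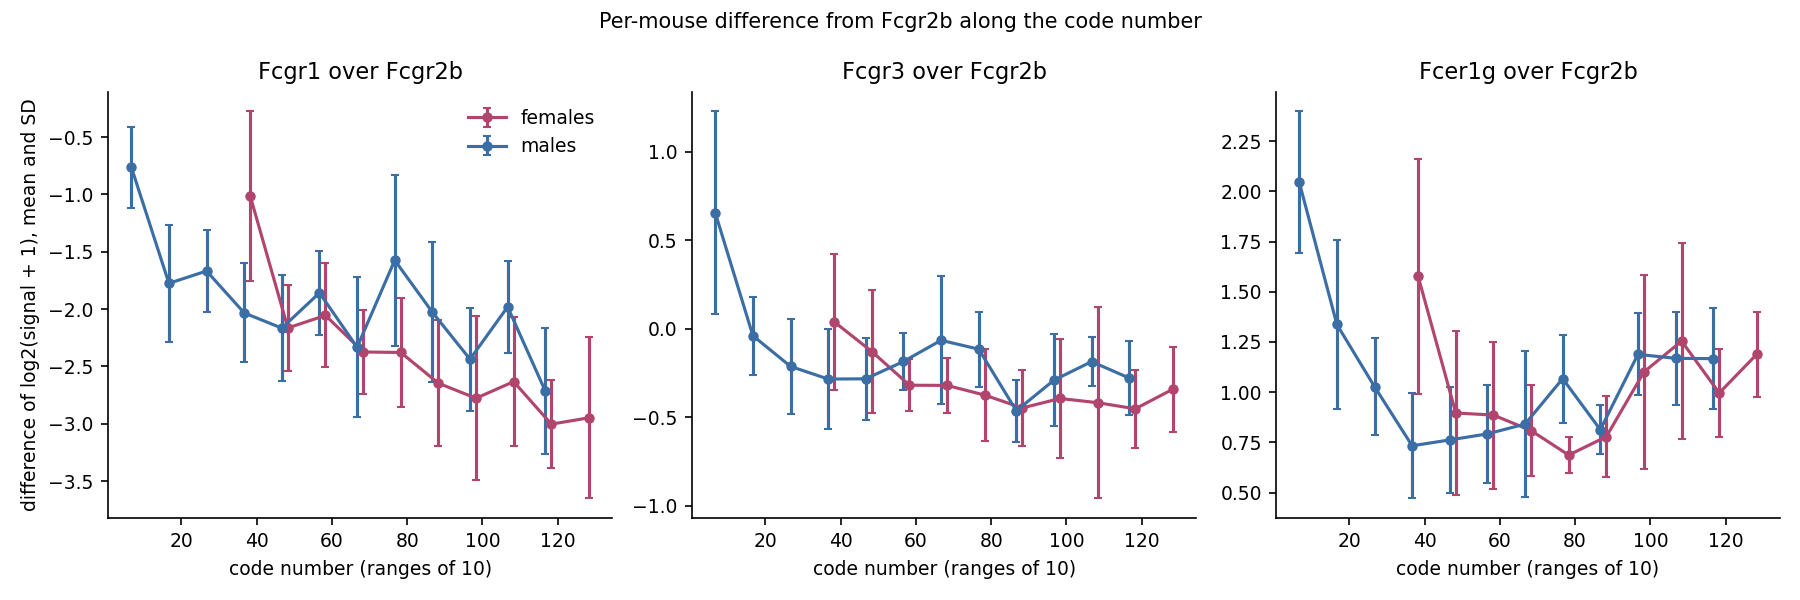
Log2 ratio of the signals of Fcgr1, Fcgr3 and Fcer1g to that of Fcgr2b (1435477_s_at) in the same mouse, as mean and SD in ranges of 10 code numbers, females and males. The ratios are highest in the lowest numbers of each sex, at 2.55 times the female mean in females 33 to 42 and 2.37 times the male mean in males 9 to 12 for Fcgr1.

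The signals were then set against the number 1 by 1. Fcgr1 fell with the number in females, with a Spearman correlation of -0.618 (Bonferroni p = 9.11e-07 over the tested probe sets, r = -0.572, r = -0.546 without the 2 farthest mice). It averaged 4482 ± 2037 in females 33 to 42 (SD, n = 10) and 1621 ± 343 in the 10 females from smi113 to smi122. Among the tested probe sets 29.5% passed in females, 16.2% rising and 13.3% falling, and 3 of the 9 Fc receptor probe sets fell while none rose. In males the correlation of Fcgr1 was -0.334 and did not pass the correction over the array (Bonferroni p = 1, permutation p = 0.00036), with 35.6% of tested probe sets called, 19% rising and 16.5% falling. The slopes of the sexes differed, with a difference for Fcgr1, females minus males, of -0.0103 log2 units per number (limma, Benjamini-Hochberg p = 0.00562, with 9.57% of tested probe sets called, 4.9% towards a higher and 4.66% towards a lower slope in females). Within the numbers that both sexes held the Fcgr1 slopes no longer passed (p = 0.122). There the 4 tested Fcgr2b probe sets differed instead, with slopes higher in females by 0.0071 to 0.0102 (Benjamini-Hochberg p = 0.000223 to 0.00508). They read the same gene and ranked the mice alike. Calls were more frequent in this setting, with 2073 of 22059 tested probe sets towards a higher slope in females and 2367 towards a lower one.

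Fcgrt fell in both sexes. Its correlation with the number was -0.618 in females (Bonferroni p = 9.34e-07, r = -0.561, and -0.579 without the 2 farthest mice) and -0.504 in males (Bonferroni p = 0.000248, r = -0.463, and -0.463 without the 2 farthest), and -0.528 in the 90 males outside 55 to 78 (p = 0.00192, with 36.9% of tested probe sets called, 19.9% rising and 17% falling). It was the only Fc receptor probe set called in males. Fcer1g had positive correlations, 0.329 in females and 0.317 in males, that passed a permutation test (p = 0.00134 and 0.00051) but not the correction over the array. Fcgr2b had correlations of 0.104 in females and 0.103 in males, and Fcgr3 of -0.234 in females and -0.098 in males, none of which passed that correction.

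The correlations understate how the signals moved, since several receptors went up and down in runs of neighbouring numbers. Fcgrt averaged 3394 ± 607 in females 73 to 82 and 1479 ± 348 in females smi93 to smi102. In males it averaged 3489 ± 381 at 53 to 62, 993 ± 403 at 73 to 82 and 1998 ± 328 at 83 to 92 (SD, n = 10 each). The male trough was sharp: males 59, 60 and 61 had Fcgrt signals of 3934.0, 4004.6 and 3576.1, and males 70 to 76 had 938.8, 713.3, 422.2, 790.9, 461.7, 588.5 and 920.7. Thus 9 of the 10 lowest Fcgrt signals among males belonged to numbers 70 to 82. The Spearman correlation of Fcgrt between consecutive numbers was 0.755 in females and 0.768 in males, above 97.2% and 94.5% of all tested probe sets.

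Fcgr2b started low in both sexes. Among females the first mice had Fcgr2b signals of 6175.8, 6044.7, 6813.9, 4566.3 and 7231.6 in females 34, 35, 36, 38 and 39, against 15571 ± 1100 in females 73 to 82. A later dip came in females smi99, smi100, smi104 and smi105, with 7283.5, 7951.4, 7494.2 and 6834.6, while the next, titled smi106_2 with a suffix that the labels do not explain, had 17189.5. Males 9 to 17 had 6717.4, 6471.8, 5631.4, 8876.6, 9157.3, 10812.2, 8561.0, 6092.1 and 10364.8. This run held 8 of the 10 lowest males, and males 33 to 42 already averaged 15742 ± 2422. The correlation between consecutive numbers was 0.516 in females and 0.548 in males.

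Fcgr1 was highest at different places in the sexes. Among females the highest signals were at the start, with 5928.7 in female 33 and 9001.9 in female 34. The lowest were 628.9 and 762.7 in females smi100 and smi102, near smi97 and smi106_2 with 5100.9 and 5603.2, so that single mice also departed from their neighbours. Males 78 to 84 had Fcgr1 signals of 8657.8, 8003.6, 6026.2, 9776.1, 5077.0, 7837.9 and 8760.6, against an overall male median of 3404.5. Fcgr3 and Fcer1g moved over narrower ranges. Fcgr3 averaged 8641 ± 1707 in females 33 to 42 and 12215 ± 1951 in females 43 to 52, and Fcer1g averaged 24685 in females 33 to 42 and 28266 in females smi103 to smi112.

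**Figure D4:**
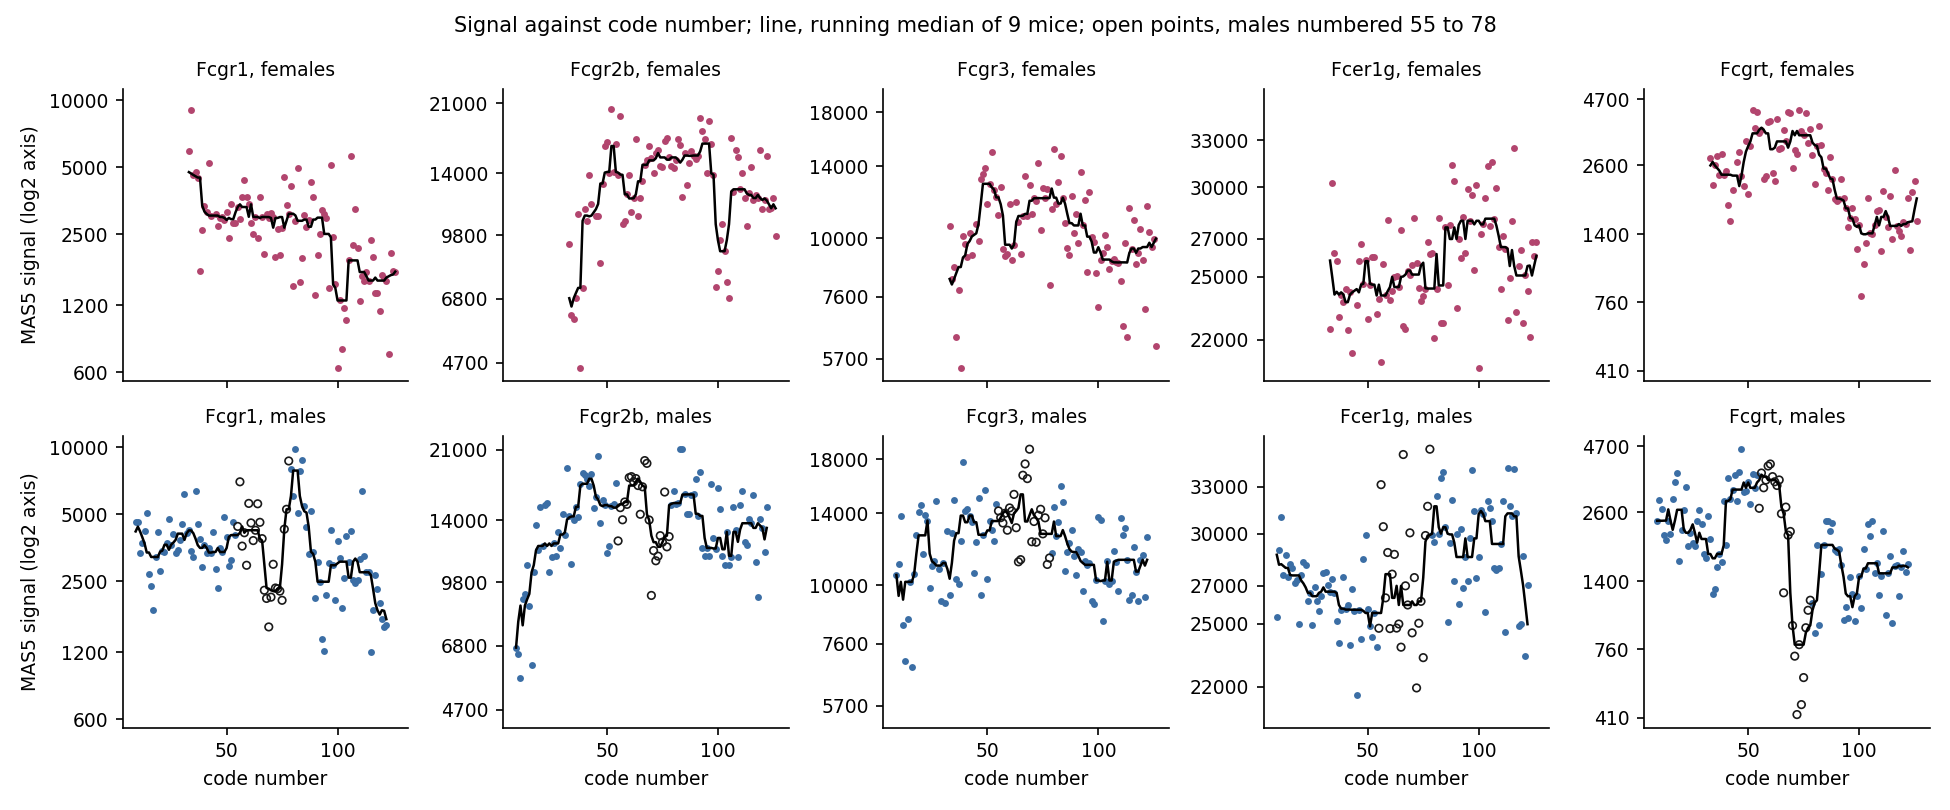
MAS5 signal (log2 axis) of the brightest probe set of each gene against the code number, females in the upper row and males in the lower one. Lines are running medians of neighbouring mice and open points are the males numbered 55 to 78. Fcgrt of males falls to 422.2 in the trough near number 72, Fcgr2b is low in the first mice of each sex and Fcgr1 of males peaks at 9776.1.

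The males numbered 55 to 78 and the other 90 males were set side by side without a test. Fcgr3 averaged 13826 in the 24 and 11701 in the 90, a ratio of 1.18, the largest among the brightest probe sets of the 5 genes. The Fcgr2b probe set 1435476_a_at had a larger one, 1.23. Fcgr2b (14796 and 13793), Fcgr1 (3849 and 3645), Fcgrt (2197 and 2108) and Fcer1g (27603 and 27991) had ratios of 1.07, 1.06, 1.04 and 0.986. For Fcgrt the spread stood out, with a coefficient of variation of 58.1% in the 24 and 38.1% in the 90, and the start of the trough falls within these numbers. The Gapdh 3′ to 5′ ratio had a Spearman correlation with Fcgrt of -0.109 in females and -0.678 in males, with -0.677 in the 24 and -0.688 in the 90. The beta-actin ratio had -0.116 in females and 0.068 in males, with 0.799 in the 24 and -0.306 in the 90. The 2 ratios thus had opposite signs in the 24 males, and the part of RNA integrity in the Fcgrt course was not tested.

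The shape of each distribution was described on the log2 scale. Fcgr1 had an SD of 0.69 in females and 0.60 in males and a highest signal 14.3 and 8.15 times the lowest. Fcer1g was at the other end, with SDs of 0.14 in females and 0.15 in males, lower than all but 1.54% and 1.77% of tested probe sets, and a highest signal 1.56 and 1.65 times the lowest. Fcgr3 had SDs of 0.29 and 0.27, Fcgr2b 0.41 and 0.36, and Fcgrt 0.54 and 0.70 in females and males, with medians over all tested probe sets of 0.38 and 0.40. Each of the 4 other genes thus had a larger SD than the chain that the activating receptors signal through.

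Fcgr2b had the lowest skewness of the 5 genes on the deposited scale. The value was -1.15 in females and -1.04 in males, against medians of -0.27 and -0.25 over all tested probe sets, and 5 females and 4 males lay below 0.5 times the median of their sex. In females 2 normal components were favoured over 1 by 9.34 units of the Bayesian information criterion, in males by 0.47, and for the 4 other genes 1 component was favoured in both sexes. The other tested Fcgr2b probe sets also favoured 2 components in females, by 3.94, 4.31 and 7.55 units. In males each of them favoured 1, with values of -5.49, -4.58 and -2.01. The mice below 0.5 times the median all lie in the runs given above. The shapes depended on the scaling. With each array scaled to the same median, Fcgr2b had a skewness of -0.99 in females and -0.59 in males, with 1 component favoured in males. In females the brightest Fcgr2b probe set still favoured 2 under this scaling, by 5.14 units. The other tested ones favoured 1 (-1.59, -2.83 and -0.13). Fcer1g then had -1.11 in females and -0.99 in males, with 2 components favoured in males by 18.4 units, and Fcgrt had -1.06 in males, with 2 favoured by 6.48. In the 90 males outside 55 to 78 the same scaling gave skewness of 0.23 for Fcer1g and -0.11 for Fcgrt, with 1 component favoured for both. When differences between mice with consecutive numbers were used, a setting chosen after seeing the data, the skewness of Fcgr2b was -0.11 in females and 0.00 in males and 1 component was favoured. Such differences are near symmetric whatever the shape of the signals. Their median skewness over all tested probe sets was 0.0046 in females and -0.0024 in males, so this setting cannot tell where the skewness of Fcgr2b comes from. Fcgrt had 2 females and 11 males below 0.5 times the median. Fcgr1 had 11 females and 7 males there, and Fcgr3 and Fcer1g had none.

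How the 5 genes varied together was measured over the 10 pairs of genes by Spearman and Pearson correlation across the mice of a sex, with 100000 permutations and a Benjamini-Hochberg correction over 68 correlations. By Spearman correlation 5 of 10 pairs passed in females, 4 in males and 3 in the 90 males outside 55 to 78. The share of other gene pairs of the array that would pass was not computed, so these counts do not set the Fc receptor genes apart. Fcgr2b and Fcgr3 were the pair most alike. Their Spearman correlation was 0.595 in females (r = 0.611, r = 0.579 without the 2 farthest females) and 0.566 in males (r = 0.560, r = 0.575 without the 2 farthest males), each with permutation p = 1e-05 and Benjamini-Hochberg p = 2.06e-05. The correlation was 0.593 in the 90 males and 0.480 in the 24. It stood at 0.450 in females and 0.470 in males when differences between consecutive mice were used, a setting chosen after seeing the data. Shared probe sequence between these relatives was not tested.

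Pairs with Fcgrt behaved otherwise. Fcgr3 and Fcgrt had a correlation of 0.539 in females (r = 0.499, permutation p = 1e-05 for both, r = 0.556 without the 2 farthest) and 0.167 in males (r = 0.154, permutation p = 0.0743 and 0.104). Fcgr1 and Fcgrt had 0.460 in females (r = 0.318, permutation p = 1e-05 for rho and 0.00171 for r) and 0.264 in males (r = 0.130, p = 0.00478 and 0.165). Between consecutive mice these values were lower, 0.175 in females and 0.036 in males for Fcgr3, and 0.059 in females and 0.221 in males for Fcgr1. With a straight line on the number taken out, Fcgr3 and Fcgrt had 0.495 in females (Benjamini-Hochberg p = 2.13e-05) and 0.148 in males, whereas Fcgr1 and Fcgrt had 0.096 in females and 0.067 in males. Fcgr2b and Fcgrt had 0.307 in females, 0.317 between consecutive females, and 0.250 in males. The male value came with 0.668 in the 24 males numbered 55 to 78 and 0.079 in the other 90. The difference between the sexes in these correlations was not tested.

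Between Fcer1g and its receptors the rank correlations of the deposited signals were low. Fcer1g had correlations of 0.116 in females and 0.126 in males with Fcgr1, of -0.165 in females and -0.040 in males with Fcgr3, and of 0.106 in females and 0.074 in males with Fcgr2b. None of these 6 passed by rank, while Pearson r of Fcer1g and Fcgr1 in males was 0.307 (permutation p = 0.00093, r = 0.229 without the 2 farthest males). Fcer1g and Fcgr1 had higher values in other settings. With a straight line on the number taken out they gave 0.387 in females (Benjamini-Hochberg p = 0.00024) and 0.274 in males (p = 0.00531), and between consecutive mice 0.508 in females and 0.209 in males. Quantile normalization gave 0.365 in females and 0.262 in males. With each array scaled to the same median the pair had 0.418 in females and 0.434 in males, and Fcer1g had 0.278 in females and 0.464 in males with Fcgr3, and 0.271 in females and 0.482 in males with Fcgr2b. Quantile normalization instead gave Fcer1g -0.243 in females and -0.315 in males with Fcgr3, and -0.037 in females and 0.020 in males with Fcgr2b. Scaling to the same median multiplies both signals of a mouse by the same factor, and its part in these values was not tested. The correlation of Fcer1g and Fcgrt, -0.231 in females (Benjamini-Hochberg p = 0.0417), turned to 0.220 when each array was scaled to the same median and to 0.135 between consecutive mice. In the 90 males outside 55 to 78 it was -0.287 (Benjamini-Hochberg p = 0.0118) and turned to 0.350 between consecutive mice. Fcgr1 and Fcgr2b, the activating and the inhibitory receptor, had 0.202 in females (r = 0.046, Benjamini-Hochberg p = 0.0769) and 0.257 in males (r = 0.255, p = 0.0118), and Fcgr1 and Fcgr3 had 0.10 in females and 0.082 in males.

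**Figure D5:**
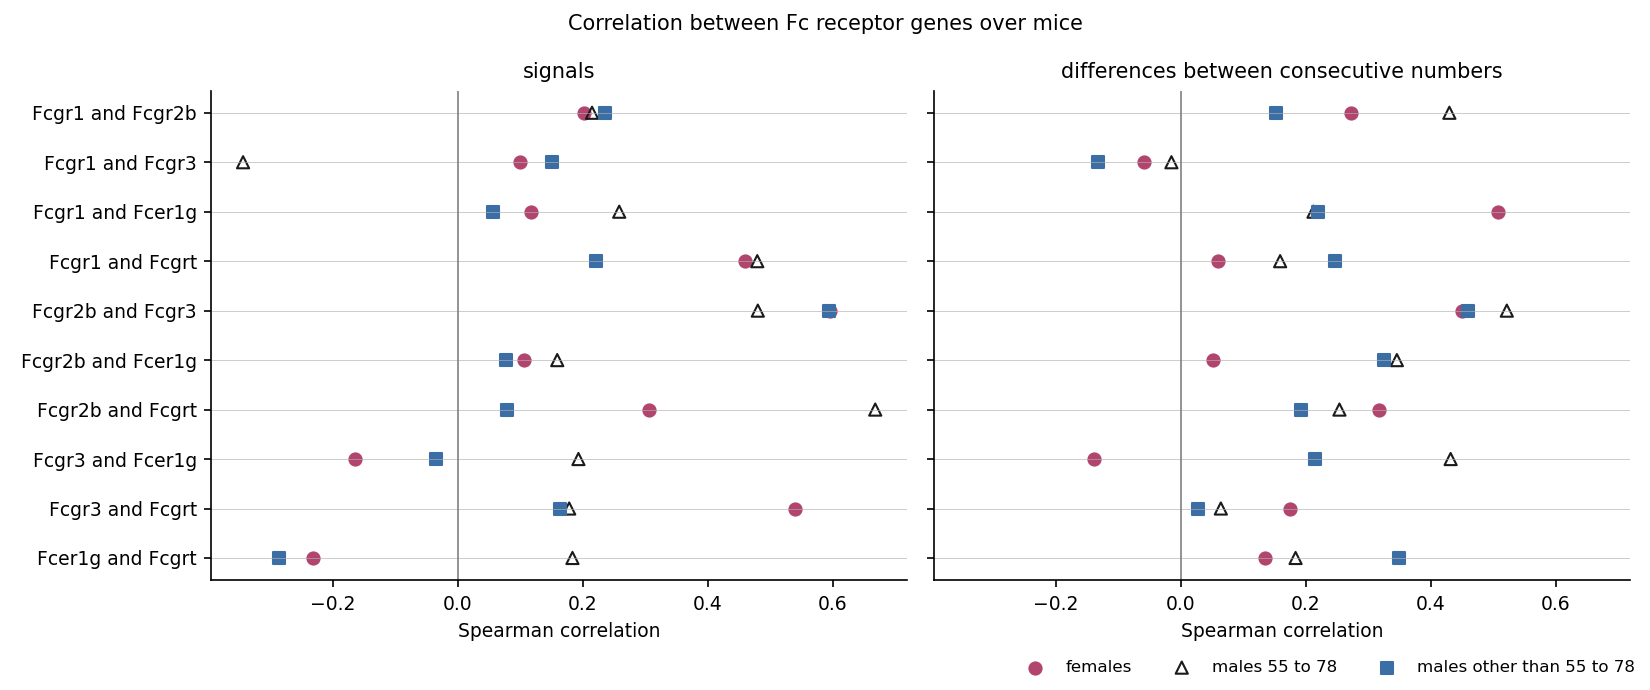
Spearman correlation across mice for the 10 pairs of genes, on the left for signals and on the right for differences between mice with consecutive code numbers, in females, males 55 to 78 and the other males. Fcgr2b and Fcgr3 keep a correlation of at least 0.450 in both panels, and in females the pairs of Fcgrt with Fcgr1 and Fcgr3 are nearer 0 on the right.

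For each gene the 3 most similar of 10870 genes were taken by the mean of 2 Spearman correlations with it, in females and in the 90 males outside 55 to 78. For Fcgr1 these were Pnp (0.814 in females and 0.851 in the males), a purine salvage enzyme, Zbp1 (0.841 and 0.801), a sensor of Z-form nucleic acid, and Phf11d (0.838 and 0.80). For Fcgr2b they were Mcoln2 (0.752 and 0.676), a lysosomal ion channel, P2ry13 (0.779 and 0.633), a receptor for ADP, and Rab32 (0.649 and 0.735), a vesicle GTPase. Fcgr3 was 23rd for Fcgr2b. For Fcgr3 they were Cnpy2 (0.674 and 0.599), Fcgr2b (0.651 and 0.594, probe set 1455332_x_at) and Sptlc1 (0.539 and 0.649), a subunit of the enzyme that begins sphingolipid synthesis. Fcer1g was closest to Tmsb4x (0.706 and 0.751), which binds actin monomers, Cox6b1 (0.751 and 0.664), of the respiratory chain, and Actb (0.689 and 0.720). Fcgrt was closest to Wwp1 (0.859 and 0.881), a ubiquitin ligase, Tbc1d4 (0.805 and 0.871), which acts on Rab proteins, and Ncapg2 (0.784 and 0.859), a condensin subunit. These are likenesses over mice whose neighbours in number resemble each other.

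Other Fc receptors and partners were counted from a list, gene by gene, over 10872 genes, with 18.3% called higher in females and 10.7% called higher in males. Of 13 listed genes 6 reached the signal minimum, and Fcer1a and Ms4a2, subunits of the high-affinity IgE receptor, and Pigr were among those that did not. Fcgr4, the other activating IgG receptor that uses the gamma chain, averaged 3434 ± 1347 in females and 2591 ± 1071 in males, a ratio of 1.33 opposite to those of Fcgr1 and Fcgr3 that did not pass (Bonferroni p = 0.0769). Tyrobp, an ITAM adaptor like Fcer1g, averaged 23613 ± 2683 in females and 26488 ± 2560 in males (ratio 0.891, p = 1.66e-08). Trim21, a cytosolic Fc receptor, averaged 987 in females and 826 in males (ratio 1.2, p = 0.0274). B2m, the partner of Fcgrt, averaged 34991 in females and 33655 in males (p = 1). It rose with the code number in both sexes (rho = 0.554 in females and 0.477 in males, Bonferroni p = 0.000189 and 0.00182), opposite to Fcgrt. In the list B2m was the only gene that rose, and Fcrl1 the only one that fell, in each sex (13.7% of genes rose and 16.8% fell in females, 18.3% and 18.5% in males).

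Of 22 measured genes of activating signalling below the receptors, 3 were higher in females and 1 in males, where 18.3% of all genes were called higher in females and 10.7% higher in males. The count was not above these shares in either direction, and the median log2 ratio was 0.06. Syk, the kinase recruited by the ITAM, averaged 7504 ± 1064 in females and 6241 ± 1153 in males (ratio 1.2, Bonferroni p = 1.42e-08). Pik3r1, the regulatory subunit of PI 3-kinase, averaged 2119 in females and 1657 in males (ratio 1.28, p = 2.44e-07). Crkl, an adaptor, was also higher in females (2107 in females and 1810 in males, p = 6.68e-14). Cdc42, a GTPase of phagocytic cup formation, was lower in females (17229 in females and 21061 in males, ratio 0.818, p = 3.19e-19).

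On the inhibitory side, of 13 measured genes 3 had the higher signal in females and 2 the higher in males, near the same shares over all genes (18.3% and 10.7%), with a median log2 ratio of 0.02. Inpp5d, which encodes SHIP1, averaged 2869 ± 501 in females and 3391 ± 572 in males (ratio 0.846, Bonferroni p = 1.24e-06), and Pirb, another ITIM receptor, 7237 in females and 9024 in males (ratio 0.802, p = 1.53e-09). Csk, a kinase that restrains Src kinases, averaged 1794 in females and 1149 in males (ratio 1.56, p = 1.02e-24). Cblb, a ubiquitin ligase, averaged 629 in females and 479 in males (ratio 1.31, p = 2.15e-15), and Ptpn11, a phosphatase, was the 3rd gene higher in females.

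Interferon-response genes were listed because Fcgr1 is known as an interferon-induced gene. Of 14 measured genes Irf1 was higher in females (2971 in females and 2035 in males, Bonferroni p = 1.35e-08) and Stat2 lower (731 in females and 987 in males, p = 0.00369). Over all genes 18.3% were called higher in females and 10.7% higher in males. With the code number 10 of 14 fell in females, and 2 rose and 2 fell in males. Over all genes 16.8% fell in females, and 18.3% rose and 18.5% fell in males, so the male counts were not above these shares. The summed signal of the list had a Spearman correlation with Fcgr1 of 0.832 in the 93 females and 0.664 in the 90 males, against 0.170 in females and -0.042 in the males with Fcgr2b. These values are descriptions, over mice that share the trend with number. A list of 20 mitosis genes, of which 19 were measured, had no gene called between the sexes and all 19 falling with the number in both sexes. Its sum had a correlation with the number of -0.854 in females and -0.831 in males, and with Fcgr1 of 0.652 in females and 0.418 in the 90 males, and with Fcgrt of 0.504 and 0.521. The part of dividing cells in the courses of Fcgr1 and Fcgrt was not tested.

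All 14 macrophage markers were measured, with Csf1r, the M-CSF receptor, at 31413 in females and 31813 in males. Of them Spi1, which encodes PU.1, was higher in females (7517 in females and 6267 in males, Bonferroni p = 5.41e-13) and Itgam lower (5019 in females and 7204 in males, p = 2.60e-14). Over all genes 18.3% were called higher in females and 10.7% higher in males, and the marker calls below are to be read beside these shares. Of the cells that also carry Fc receptors, B cells had 1 of 8 markers measured (Cd79b, 353 in females and 277 in males), mast cells and basophils 1 of 8 (Gata2) and NK and T cells none of 8. Neutrophil markers had 2 of 10 measured, S100a8 (3395 in females and 4448 in males) and Camp (228 in females and 226 in males). Their list sum ran from 426.7 to 19464 in females and from 455 to 32618 in males, rose with the number (rho = 0.671 in females and 0.690 in males), and had a correlation with Fcgrt of -0.643 in females and -0.711 in the 90 males, and with Fcgr1 of -0.589 in females and -0.116 in the 90 males. The defining genes Mpo, Elane and Ltf did not reach the signal minimum. Stromal markers had 8 of 8 measured, 2 of them, Col1a1 (485 in females and 788 in males) and Dcn (524 in females and 1198 in males), lower in females (10.7% of all genes). The stromal sum ran from 399 to 76840 in females and from 457 to 34878 in males, with correlations of -0.523 with Fcer1g and 0.468 with Fcgrt in the 90 males, against -0.153 and -0.027 in females. Osteoclast markers had 5 of 7 measured, none of them called between the sexes, with Calcr and Ocstamp below the minimum. Their sum ran from 7184 to 33376 in females and from 7456 to 44341 in males. It had correlations with Fcgr3 of 0.541 in females and 0.502 in the 90 males, and with Fcgrt of 0.559 in females and -0.279 in the 90 males. Every list sum adds linear signals, so its brightest genes weigh most. Mmp9 averaged 13893 in females and 14174 in males, against median osteoclast sums of 18598 in females and 19041 in males. Among neutrophil markers S100a8 weighed more than Camp. Of the dendritic markers Itgax was lower in females (631 in females and 1282 in males, p = 0.00538). The part of these cells in the results was not tested.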

How the data were processed

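Macrophages grown from marrow were profiled in 207 F2 mice, 93 females and 114 males, with 1 array per mouse. The submitters' processing notes name MAS5, and the authors deposited linear signal intensities, for which perfect match and mismatch probes were compared and brightness was scaled over the whole chip. The scaling bears on every sex ratio. The deposited signals were used unchanged, without 64 control probe sets. No 2 arrays were identical. The number of arrays limits the precision.

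Groups came from the labels. Of 45037 probe sets, 22059 with a signal of at least 78 in at least 69 arrays were tested. Sexes were compared by 2-sided Mann-Whitney tests with Bonferroni correction (unadjusted threshold 2.27e-06), as in the study's methods. The code number was tested by Spearman correlation with the same correction, and slopes between sexes by limma with Benjamini-Hochberg correction. Logs are log2(signal + 1). Single ratios and correlations had 100000 permutations. Consecutive-number correlations and motif shares are descriptions.

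Alternatives were median and quantile scaling, other signal minima (150, or none), a pseudocount of 16, limma, shared numbers and ranges of them, omission of the males numbered 55 to 78, covariates for code number and RNA integrity, and the other Fcgr2b probe sets above the signal minimum. The tests of the sexes, trends and slopes were checked on simulated data. Those data had no likeness between neighbouring mice, so the check cannot show the error rates of the tests here. The members, the lists and the tests were chosen with earlier results of these data known. The genes named were the members, Fcgr4, Tyrobp, B2m, Syk and Inpp5d, in each list up to 2 called genes per direction with the largest ratio, and the 3 genes most like each member. Crkl, Ptpn11, Csf1r, Fcrl1, Cd79b, Gata2, S100a8, Camp, Mmp9 and the genes below the minimum were named after their values were seen.

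The array annotation holds 35890 probe sets (34958 with a single symbol, 932 with more), of which 34754 were found in the reference gene table. The genotypes were not used, since their mouse codes name no array. Tests ran in scipy 1.17.1, numpy 2.4.6, scikit-learn 1.9.0 and pandas 2.3.3 under Python 3.11.15, and in limma 3.58.1 under R 4.3.3, with plots by matplotlib 3.10.9.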

Additional observations from a re-analysis of the deposited data

Results flagged for a closer look

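The trend of Fcgr1 with the code number differed between females and males when the slopes were tested against each other. Probe set 1417876_at had a slope of -0.0103 log2 units per number for females minus males (limma, Benjamini-Hochberg p = 0.00562), and probe set 1436625_at one of -0.00995 (p = 0.0136). Over the numbers that both sexes held the values were -0.00694 (p = 0.122) and -0.00728 (p = 0.138), so that neither passed there.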

How the results depend on the processing

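The number of Fc receptor probe sets called between the sexes was 4. It was 0 with each array scaled to the same median, 2 without the males numbered 55 to 78, 1 at numbers 63 to 92 (Fcgrt, not among the 4) and 0 from 93 upwards. By limma it was 4 with Bonferroni and 8 with Benjamini-Hochberg correction, and with the RNA integrity ratios as covariates 2 with Bonferroni (Fcer1g and Fcgrt) and 7 with Benjamini-Hochberg correction. Over all probe sets 6874 were called, against 3420 at numbers 33 to 62, 3781 at 63 to 92 and 1826 from 93 upwards. By limma 6846 were called with Bonferroni and 14007 with Benjamini-Hochberg correction, and with the RNA integrity ratios 3285 and 10861. In the shared numbers the slopes differed for 4440 probe sets (4 of the Fc receptors), against 2110 (2) over all numbers. The balances between the sexes, as log2 differences with permutation tests and Benjamini-Hochberg correction, changed with the Fcgr2b probe set. That of Fcgr1 was -0.215 in shared numbers (p = 0.101), -0.0243 with 1451941_a_at (p = 0.795), -0.178 with 1455332_x_at (p = 0.11) and -0.165 with 1435476_a_at (p = 0.14). That of Fcgr3 was -0.10 without the 24 males (p = 0.0563), -0.0759 in shared numbers (p = 0.133), and turned to 0.208 with 1451941_a_at (p = 3e-05), 0.0540 with 1455332_x_at (p = 0.26) and 0.0671 with 1435476_a_at (p = 0.165). That of Fcer1g turned to 0.316 with 1451941_a_at (p = 3e-05), 0.162 with 1455332_x_at (p = 0.0305) and 0.175 with 1435476_a_at (p = 0.0217). Ratios to 1447622_at, which did not reach the signal minimum, are not reported. Other directions turned as well: the sex difference of Fcer1g to 0.0110 with arrays scaled to the same median, and the correlation of Fcer1g and Fcgrt in females to 0.220 with that scaling, 0.109 with quantile normalization and 0.135 between consecutive mice, an alternative chosen after seeing the data. The causes were not tested. For single probe sets, 89 alternatives of the sex difference counted as the same, 23 lost a call, 13 gained one and 1 turned. To count as the same was to stay on the same side of the threshold. A turned direction was also counted there if neither result passed. Fcgr2b 1435477_s_at was such a case, with ratios of 0.944 as deposited and 1.03 with arrays scaled to the same median. Of the calls lost, Fcgr3 was at p = 0.0623 with quantile normalization, and Fcgr1 at p = 0.0903 without a signal minimum and p = 1 in the shared numbers. Of 135 for the trends 134 counted as the same by this rule, as did 39 of 45 for the slopes between sexes. Of 90 for the correlations of gene pairs 44 moved by more than their standard error and 3 turned, and of 35 for the skewness 16 moved. With the code number as a covariate in limma, Fcgr1 no longer passed (p = 1), while Fcgrt (p = 0.0246), 1455332_x_at (p = 0.00935) and 1435476_a_at (p = 0.0171) did. No paired analysis was possible because females and males that share a number are different mice. The meaning of the code number limits every trend, and probe sharing between Fcgr2b and Fcgr3 limits their correlation. The title prefix held by every male and no female limits every comparison of the sexes.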
